A study of Homo sapiens with 6 samples.

Results

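The genes described here write, erase or read lysine acetylation, or belong to the corepressor complexes that carry histone deacetylases (HDACs) to chromatin. They were taken by gene name from the RNA-Seq count table: 58 genes of 60623, made up of the zinc-dependent HDACs, the sirtuins, lysine acetyltransferases, bromodomain proteins, and subunits of the NCoR, CoREST, SIN3 and NuRD corepressors. The counts come from TC28a2, an immortalized human chondrocyte line, which received either 2 μM mocetinostat or DMSO, its solvent, over 24 hours. Each condition has 3 samples, described by the study as independent experiments. Mocetinostat inhibits HDAC1, HDAC2, HDAC3 and HDAC11, and the table therefore shows what happened to the RNA of the enzymes it inhibits and of their partners and opponents. Both conditions are the same immortalized line, and no primary chondrocyte was included in this table. All 58 genes were found, and 57 passed the expression filter of edgeR and were tested. The exception was *SIRT4*, a mitochondrial sirtuin, with counts of 15, 5 and 9 in the DMSO-treated samples and of 22, 2 and 4 in the mocetinostat-treated samples, always in the order of replicates 1 to 3.

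Acetylation of histone tails loosens the contact between nucleosomes and DNA and creates docking sites for bromodomains. Lysine acetyltransferases add the mark, and HDACs and sirtuins remove it. The class I enzymes HDAC1 and HDAC2 work inside the SIN3, NuRD and CoREST complexes, and HDAC3 works with NCoR. In chondrocytes, HDACs are known as repressors of cartilage matrix genes and, for the class IIa enzymes, as brakes on hypertrophy.

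Total counts ran from 1619344 to 11031132 per sample, and all 3 mocetinostat-treated libraries held fewer counts than DMSO replicate 1 and DMSO replicate 3. Values below are CPM, each count expressed per fixed library size after scaling with edgeR's TMM factors, and log2 fold changes compare mocetinostat with DMSO. The study's thresholds were used for calls: upregulated means a log2 fold change above 1, downregulated one below -1, and both need an adjusted p below 0.05. The cell line label was compared with 8 chondrocyte markers, whose summed level was 115 to 141 CPM with DMSO, most of it from *SOX9*, and 257 to 297 CPM with mocetinostat. *COL9A1* and *COMP* were at 0 in some samples, and all 7 chondrocyte markers that could be tested were higher with mocetinostat. Fibroblast markers (5 genes) summed to 4501 to 5451 CPM with DMSO and 4031 to 4388 CPM with mocetinostat, nearly all from *COL1A1* and *COL3A1*, which were lower with mocetinostat, while *COL1A2* and *LUM* were higher. Markers of blood and endothelial cells (3 genes) summed to 3.39 to 7.71 CPM with DMSO and 8.68 to 9.53 CPM with mocetinostat, with *PTPRC* at 0 in some samples. Epithelial markers (3 genes) summed to 0.208 to 0.884 CPM with DMSO and 22.0 to 34.1 CPM with mocetinostat, with *KRT5* at 0 in every DMSO-treated sample and *EPCAM* at 0 in some, and the part of these marker changes in the results below was not tested.

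The promoters of 5 members are shown because these genes carry the main contrasts: *EP300* and *CREBBP*, paralogous acetyltransferases that both fell, *NCOA3*, a coactivator that rose, and *HDAC11* and *HDAC7*, which moved in opposite directions. Each line gives the 250 bases before the RefSeq gene start in GRCh38.p14, read 5′ to 3′ on the gene's strand. For *HDAC7* and *HDAC11* the RefSeq start differs from the GENCODE gene bounds given below, and their windows lie inside those bounds. Capitals mark the GC box (GGGCGG or its reverse complement CCGCCC), a motif bound by SP and KLF factors.
EP300, chr22:41092342-41092591, plus strand: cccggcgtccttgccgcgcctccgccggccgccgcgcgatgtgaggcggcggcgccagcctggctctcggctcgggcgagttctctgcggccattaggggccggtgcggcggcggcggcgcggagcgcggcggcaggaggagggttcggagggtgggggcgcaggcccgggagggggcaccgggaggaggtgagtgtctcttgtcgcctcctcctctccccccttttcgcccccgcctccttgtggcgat
CREBBP, chr16:3880714-3880963, minus strand: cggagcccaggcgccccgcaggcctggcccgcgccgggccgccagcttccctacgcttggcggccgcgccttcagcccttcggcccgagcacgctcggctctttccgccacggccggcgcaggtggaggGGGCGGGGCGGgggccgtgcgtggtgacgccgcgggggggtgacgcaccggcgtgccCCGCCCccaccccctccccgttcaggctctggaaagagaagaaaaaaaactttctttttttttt
NCOA3, chr20:47501637-47501886, plus strand: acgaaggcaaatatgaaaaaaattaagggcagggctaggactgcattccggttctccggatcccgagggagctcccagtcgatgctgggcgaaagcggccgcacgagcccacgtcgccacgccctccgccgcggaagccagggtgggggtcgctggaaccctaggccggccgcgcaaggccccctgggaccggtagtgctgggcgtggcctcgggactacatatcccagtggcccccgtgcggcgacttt
HDAC11, chr3:13480056-13480305, plus strand: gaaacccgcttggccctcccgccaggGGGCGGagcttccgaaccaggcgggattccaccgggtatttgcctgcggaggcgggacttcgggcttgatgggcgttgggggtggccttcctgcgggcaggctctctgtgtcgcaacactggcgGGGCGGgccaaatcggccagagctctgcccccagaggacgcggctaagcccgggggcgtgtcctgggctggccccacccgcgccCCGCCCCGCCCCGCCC
HDAC7, chr12:47819904-47820153, minus strand: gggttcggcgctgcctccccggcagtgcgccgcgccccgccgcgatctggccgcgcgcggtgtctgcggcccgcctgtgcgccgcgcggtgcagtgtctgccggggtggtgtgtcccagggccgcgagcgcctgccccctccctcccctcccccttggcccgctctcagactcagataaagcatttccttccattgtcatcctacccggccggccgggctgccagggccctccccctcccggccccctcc

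RefSeq promoter windows were found for 52 of the 58 members. A GC box was present in 34 of these 52 windows (65.4%), against 42.3% of all 27305 RefSeq promoters, and in 6 of the 14 windows of downregulated members (42.9%). The median member promoter held 25 CpG dinucleotides, against 11 over all promoters. A TATA box (TATAAA on either strand) was found in 1 member window (1.92%, against 11.1% of all promoters), and the ETS motif CCGGAAG in 10 (19.2%, against 8.82%). A CCAAT box (CCAAT on either strand) was found in 15 (28.8%, against 33.0%). These are matches of letters only. The comparison set holds promoters of all genes, expressed in these cells or not, so the shares are not read as particular to the members. *HDAC11* held 5 GC boxes, *CREBBP* held 3, and *EP300*, *NCOA3* and *HDAC7* held none.

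More members were lower than higher after mocetinostat treatment. Of the 57 members tested, 14 were called downregulated (24.6%) and 3 upregulated (5.26%), while 8.18% of all 13966 genes tested were called downregulated and 20.2% upregulated. The members are mostly well expressed, and among the 10262 genes with a mean of at least 10 CPM the background was 8.88% downregulated and 13.1% upregulated. The 52 members at that level held all 14 downregulated genes (26.9%) and 2 upregulated genes (3.85%). Without a minimum fold change, 31 members were lower (54.4%) and 8 were higher (14.04%) at an adjusted p under 0.05, against 31.4% and 32.9% of all genes tested. Among genes with at least 10 CPM that background was 39.5% lower and 29.1% higher. The samples of the conditions did not overlap for 29 lower and 9 higher members, against 32.8% and 33.7% of all genes tested, or 40.5% and 29.9% of the genes with at least 10 CPM. Over the members the median log2 fold change was -0.44, and over all genes tested it was -0.002. Among genes with at least 10 CPM the medians were -0.45 for the 52 members and -0.12 for all 10262 genes. Bulk RNA cannot tell fewer cells that express a gene from less RNA per cell. Scaling each library to its GAPDH count raised the log2 fold changes of all genes by 0.54 and left 2 members called downregulated, *HDAC7* and *KAT5*, with 5 called upregulated. The direction of the changes is therefore relative to the bulk of the transcriptome.

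**Figure D1:**
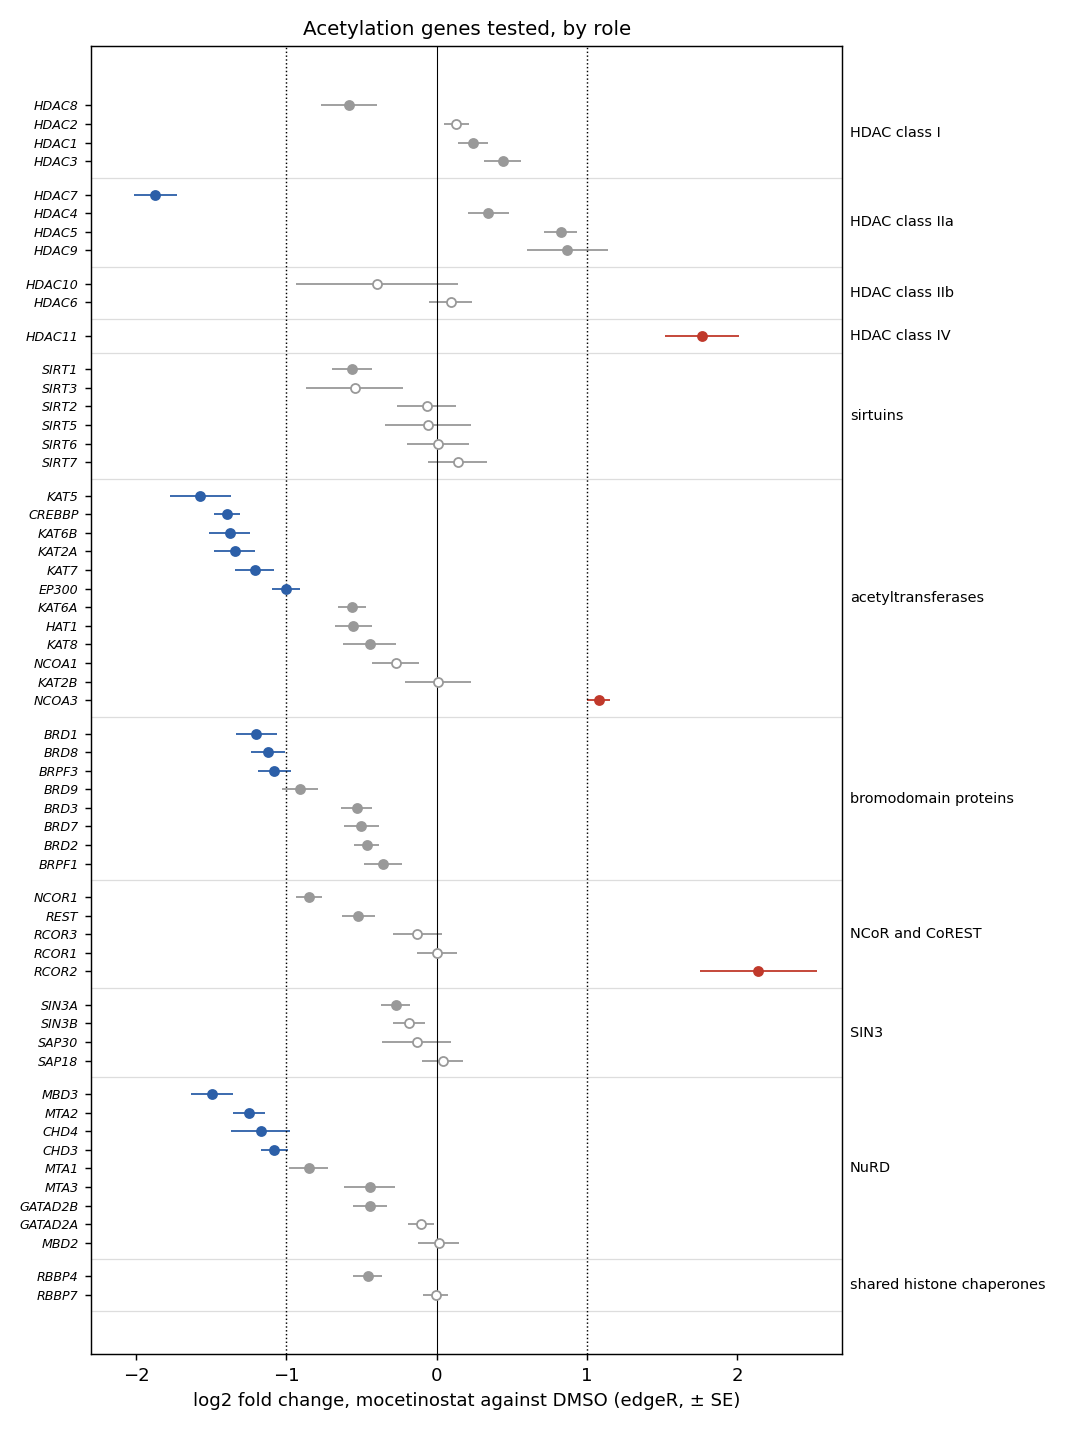
Log2 fold change of the 57 tested members, grouped by role (points, edgeR estimate; bars, standard error). Blue and red points passed both thresholds, filled gray points passed the adjusted p only, open points passed neither, and dotted lines mark a log2 fold change of -1 and 1; the acetyltransferase, bromodomain and NuRD groups lie mostly to the left of 0, while the HDAC groups lie on both sides.

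Counts and medians of the zinc-dependent HDACs are given beside those of the other members, without a test between them. Of *HDAC1* to *HDAC11*, 6 rose (54.55%) and 2 fell (18.18%) at an adjusted p under 0.05, with a median log2 fold change of 0.24. Among the other 46 members tested, 2 rose (4.35%) and 29 fell (63.04%), with a median of -0.48. Of all genes tested 32.9% were higher and 31.4% lower, and of those with at least 10 CPM 29.1% and 39.5%. The number of HDAC genes that rose varied with the setting. It was 3 with DESeq2, 2 without an expression filter and 5 after thinning. Without DMSO replicate 2 or 3 or mocetinostat replicate 1 or 3 it was 4. Under GAPDH scaling 8 HDAC genes were higher and 1 lower, and of the other members 14 were higher and 16 lower. Among the class I genes, *HDAC1* was measured at 127, 129 and 119 CPM with DMSO and at 151, 131 and 159 CPM with mocetinostat. This amounted to 0.24 on the log2 scale (standard error 0.10, adjusted p = 0.0243 by the edgeR test). *HDAC3*, the catalytic subunit of the NCoR complex, went from 57.0, 57.1 and 52.2 CPM to 66.8, 82.4 and 80.0 CPM, with a log2 fold change estimated at 0.44 (standard error 0.12, adjusted p = 0.0013 by the edgeR test). In both genes the 3 treated samples were above the 3 controls. *HDAC2*, the most abundant HDAC by counts, held 245, 247 and 234 CPM with DMSO and 268, 256 and 270.2 CPM with mocetinostat, and its log2 fold change of 0.13 did not pass the test (adjusted p = 0.154 by edgeR), although the samples did not overlap. *HDAC8*, the class I enzyme that works outside the large complexes, fell from 24.2, 28.3 and 26.1 CPM to 17.8, 14.2 and 19.1 CPM. *HDAC8* thus changed by -0.58 on the log2 scale (standard error 0.19, adjusted p = 0.0053 by the edgeR test). Without an expression filter the log2 fold changes of *HDAC1* and *HDAC2* were -0.01 and -0.12, and *HDAC3*, at 0.19, did not pass (adjusted p = 0.322 by edgeR). With at least 10 counts in every sample *HDAC1* and *HDAC2* were at 0.32 and 0.21 and both passed the test. Under GAPDH scaling *HDAC2* was at 0.66 and passed (adjusted p = 3.74e-08 by edgeR). *HDAC1* no longer passed with DESeq2 (adjusted p = 0.124) or, by edgeR, without DMSO replicate 2 or 3 or mocetinostat replicate 1 or 3 (adjusted p = 0.0822 to 0.181). *HDAC8* no longer passed under GAPDH scaling, at -0.0452, or after thinning, at -0.37.

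The class IIa genes, whose products shuttle between nucleus and cytoplasm and recruit HDAC3, split. *HDAC7* (ENSG00000061273, chromosome 12 of GRCh38 from 47782722 to 47833132) fell from 83.2, 91.8 and 84.2 CPM to 23.99, 17.4 and 27.4 CPM. Its value of -1.87 on the log2 scale (standard error 0.14, adjusted p = 2.66e-19 by the edgeR test) was the lowest of the members, a 3.67-fold reduction. The 3 other class IIa genes rose. *HDAC9* went from 6.79, 5.83 and 7.96 CPM to 13.1, 10.5 and 13.7 CPM, which is 0.87 in log2 units (standard error 0.27, adjusted p = 0.00372 by the edgeR test). *HDAC5* had a log2 fold change of 0.83 and *HDAC4* one of 0.34, with adjusted p values of 6.85e-10 and 0.0246 by the edgeR test. No sample of one condition overlapped the other in any of the 4 genes. Of all genes tested, 33.7% did not overlap as higher and 32.8% as lower. *HDAC4* did not pass with DESeq2 (adjusted p = 0.154), nor without a filter (0.0937, adjusted p = 0.646 by edgeR), nor in edgeR's test with any single sample left out other than mocetinostat replicate 2 (adjusted p = 0.06 to 0.0814). *HDAC9* did not pass with DESeq2 (adjusted p = 0.057), without a filter or after thinning. The exons of *G6PC3* on the opposite strand cover 24% of the exon bases of *HDAC5*, and *G6PC3* itself had a log2 fold change of 0.23.

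*HDAC11* (ENSG00000163517, chromosome 3 from 13479724 to 13506424), the sole class IV enzyme, an efficient remover of long fatty acyl groups, was the one HDAC called upregulated. Its raw counts were 63, 25 and 53 under DMSO against 111, 23 and 63 in the shallower libraries of treated cells, or 5.70, 5.21 and 7.81 CPM against 22.0, 14.2 and 26.1 CPM. The conditions did not overlap, and the difference was 1.77 on the log2 scale (standard error 0.25, adjusted p = 2.67e-09 by the edgeR test). *HDAC7* and *HDAC11* kept their calls in all 15 alternative analyses. Of the class IIb genes, *HDAC6*, a cytoplasmic tubulin deacetylase, was measured at 37.0, 38.1 and 50.7 CPM with DMSO and 43.4, 44 and 46.8 CPM with mocetinostat. *HDAC10*, a polyamine deacetylase, had raw counts of 19, 29 and 14 under DMSO against 14, 6 and 1 under mocetinostat. Neither passed the test, and their samples overlapped. Under GAPDH scaling *HDAC6* was at 0.63 and passed (adjusted p = 0.000319 by edgeR). *HDAC10* shares 55.8% of its exon bases with *MAPK12* on the same strand, which had a log2 fold change of -1.135, and how shared reads were assigned is not known.

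The make-up of the HDAC transcript pool was compared as the share of each gene in the summed counts per kilobase of exon of *HDAC1* to *HDAC11*, a measure that library scaling does not touch. *HDAC1* held the largest share in every sample, 36.3% ± 1.12 with DMSO and 35.8% ± 2.85 with mocetinostat (SD, n = 3). *HDAC7* went from 10.01% ± 0.336 to 2.23% ± 0.448 (SD, n = 3). *HDAC5* went from 11.5% ± 1.26 to 17.3% ± 3.19 and *HDAC11* from 1.38% ± 0.324 to 3.83% ± 1.03 (SD, n = 3). The conditions did not overlap for these 3 genes, nor for *HDAC2*, *HDAC4*, *HDAC8* and *HDAC9*. For each of the 7, the exact two-sided permutation p was 0.1, the smallest that 3 samples against 3 can give. After adjustment over the 11 genes it was 0.157. Of all single genes tested, 33.7% did not overlap as higher and 32.8% as lower in CPM. The count of 7 is therefore not read as particular to the HDAC genes. Below *HDAC1*, the order of the shares depended on the length used, and without division by length *HDAC2* came before *HDAC1* in every sample. Over all annotated exon bases the DMSO means were 18.2% for *HDAC2*, 13.8% for *HDAC3*, 11.5% for *HDAC5*, 10.01% for *HDAC7* and 1.32% for *HDAC8*. Over the canonical transcripts they were 13.7%, 15.8%, 7.89%, 11.3% and 8.25%. With mocetinostat *HDAC5*, *HDAC2* and *HDAC3* overlapped between 14.2% and 20.7% over all exon bases, whereas over canonical transcripts the mean of *HDAC3* was 19.5% and those of *HDAC2* and *HDAC5* were 13.4% and 12.6%.

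**Figure D2:**
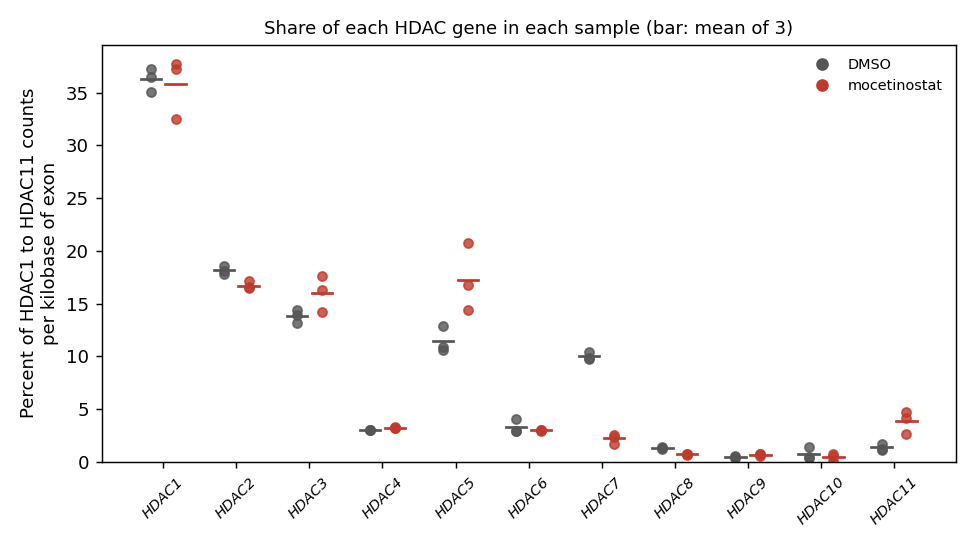
Percent of the counts per kilobase of exon of *HDAC1* to *HDAC11* held by each gene, with 1 point per sample (gray, DMSO; red, mocetinostat) and a bar at the mean of 3 samples. *HDAC7* drops from about the level of *HDAC5* to 2.23%, while *HDAC5* and *HDAC11* take larger shares.

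The sirtuins, NAD-dependent deacetylases that mocetinostat does not target, had 6 genes tested, of which 1 fell at an adjusted p under 0.05 (16.7%, against 31.4% of all genes tested) and none rose (against 32.9%). This was *SIRT1*, a nuclear deacetylase of histones and transcription factors, which went from 57.5, 59.1 and 57.3 CPM to 36.9, 40.3 and 41.9 CPM. *SIRT1* thus changed by -0.56 on the log2 scale (standard error 0.13, adjusted p = 0.000191 by the edgeR test), and the samples did not overlap. *SIRT7*, the nucleolar sirtuin, had the highest value of the group, a log2 fold change of 0.14 (adjusted p = 0.552 by edgeR), with 15.7, 19.6 and 20.2 CPM against 19.2, 18.0 and 23.2 CPM. The mitochondrial *SIRT3* had a log2 fold change of -0.55 that did not pass the test (adjusted p = 0.133 by edgeR), although its samples did not overlap. *SIRT2*, *SIRT5* and *SIRT6* lay between -0.07 and 0.01. Under GAPDH scaling *SIRT1* was at -0.0247 and no longer passed (adjusted p = 0.884 by edgeR), *SIRT2*, *SIRT6* and *SIRT7* were higher at that threshold, and *SIRT2* and *SIRT5* changed sign.

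Acetyltransferases were the group with the most downregulated genes. Of the 12 tested, 9 fell and 1 rose at an adjusted p under 0.05, and 6 were called downregulated, at a median of -0.78 on the log2 scale. The 75% lower and 50% called stand beside 39.5% and 8.88% of the genes tested with at least 10 CPM, and under GAPDH scaling 6 were lower and 2 higher. *CREBBP* (ENSG00000005339, chromosome 16 from 3725054 to 3880713), one of the paralogous coactivators that acetylate H3K27, fell from 330.0, 384 and 357 CPM to 133, 135 and 139 CPM. The fall was -1.40 on the log2 scale (standard error 0.09, adjusted p = 9.96e-24 by the edgeR test). Its paralog *EP300* (ENSG00000100393, chromosome 22 from 41092592 to 41180077) fell from 209, 248 and 231 CPM to 109, 131 and 106 CPM, or -1.003 on the log2 scale (standard error 0.10, adjusted p = 5.49e-15 by the edgeR test). The samples of the conditions were far apart in both genes. Under GAPDH scaling *CREBBP* stayed lower, at -0.87, but lost its call. *EP300* sits on the fold threshold, and 10 of the 15 alternatives took it out of the calls, among them those without DMSO replicate 2 and without mocetinostat replicate 1 or 3. Its value stayed below 0 in all 15, from -1.25 to -0.47.

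*KAT5*, the catalytic subunit of the TIP60 complex, fell from 28.6, 31.2 and 31.7 CPM to 10.7, 10.5 and 9.12 CPM. This was the lowest acetyltransferase, at -1.57 on the log2 scale (standard error 0.20, adjusted p = 2.8e-10 by the edgeR test), and it kept its call in all 15 alternatives. Exons of *RNASEH2C* on the opposite strand cover 38.6% of the exon bases of *KAT5*, and *RNASEH2C* had a log2 fold change of 0.46. *KAT2A*, the GCN5 enzyme of the SAGA complex, fell from 85.7, 81.6 and 72.4 CPM to 28.9, 35.3 and 32.3 CPM, or -1.34 on the log2 scale (standard error 0.14, adjusted p = 5.98e-14 by the edgeR test). *KAT6B*, the MORF enzyme of H3K23, fell from 74.3, 73.1 and 77.7 CPM to 28.8, 26.6 and 30.7 CPM, with a log2 fold change estimated at -1.38 (standard error 0.14, adjusted p = 2.61e-14 by the edgeR test). *KAT7*, the HBO1 enzyme that acetylates H3K14 and H4 at replication origins, fell from 96.1, 88.1 and 80.2 CPM to 33.9, 41.5 and 41.4 CPM, which is -1.21 in log2 units (standard error 0.13, adjusted p = 6.06e-13 by the edgeR test). In each of these 4 genes every treated sample was below every control, and *KAT7* lost its call with glmTreat. Under GAPDH scaling *KAT2A* (-0.80), *KAT6B* (-0.84) and *KAT7* (-0.67) stayed lower but lost the call. *KAT6A* (-0.56), *HAT1* (-0.56) and *KAT8* (-0.44) also fell by edgeR's adjusted p, and *NCOA1* (-0.27) and *KAT2B* (0.01) did not pass the test. *NCOA1* passed as lower without DMSO replicate 3 (-0.45) and without a filter (-0.52), and *KAT2B* passed as higher under GAPDH scaling (0.55). Under GAPDH scaling the 3 smaller falls no longer passed, with log2 fold changes of -0.0281 for *KAT6A*, -0.018 for *HAT1* and 0.0941 for *KAT8*. *KAT8* also lost the test with DESeq2 (adjusted p = 0.119), and by edgeR with at least 10 counts in every sample, after thinning, and without DMSO replicate 2 or mocetinostat replicate 1 or 3 (adjusted p = 0.052 to 0.162).

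Against this group stood *NCOA3* (ENSG00000124151, chromosome 20 from 47501887 to 47656877), a nuclear receptor coactivator of the p160 family. It held 244, 226 and 239.9 CPM with DMSO and 515, 493 and 489.9 CPM with mocetinostat, with little spread within a condition. This rise was 1.08 on the log2 scale (standard error 0.08, adjusted p = 9.83e-21 by the edgeR test). It was higher in all 15 alternatives, from 0.82 without an expression filter to 1.61 under GAPDH scaling, and 2 alternatives took it out of the calls.

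All 8 bromodomain genes were lower at an adjusted p under 0.05, and 3 were called downregulated (37.5%), where 39.5% and 8.88% of the genes tested with at least 10 CPM were. *BRD1*, the scaffold of an HBO1 complex, was the lowest, at 63.6, 82.0 and 82.5 CPM with DMSO and 31.9, 35.9 and 31.9 CPM with mocetinostat. This came to -1.20 on the log2 scale (standard error 0.14, adjusted p = 6.98e-12 by the edgeR test). *BRD8*, a subunit of the TIP60 complex, fell from 113, 130.1 and 141 CPM to 64.6, 50.8 and 56.8 CPM, or -1.12 on the log2 scale (standard error 0.12, adjusted p = 1.01e-13 by the edgeR test). *BRPF3*, another HBO1 scaffold, fell from 134, 141 and 147 CPM to 65.0, 68.8 and 66.7 CPM, with a log2 fold change estimated at -1.08 (standard error 0.11, adjusted p = 2.88e-14 by the edgeR test). No sample overlapped in these 3 genes. All 3 lost the call with glmTreat and under GAPDH scaling, and *BRD1* and *BRD8* also lost it after thinning to equal depth. *BRD9* and *BRD7*, subunits of variant SWI/SNF complexes, had log2 fold changes of -0.91 and -0.50. Exons of *ADCY7* on the opposite strand cover 41.8% of the exon bases of *BRD7*, and *ADCY7* had a log2 fold change of 0.19. The BET proteins *BRD2* and *BRD3*, readers of acetylated H4, had -0.47 and -0.53. The smallest change was that of *BRPF1*, the scaffold of the MOZ and MORF enzymes, at 68.2, 75.2 and 75.0 CPM against 49.4, 72.5 and 53.5 CPM, where mocetinostat replicate 2 lay within the DMSO range. In log2 units *BRPF1* was at -0.36 (standard error 0.13, adjusted p = 0.0116 by the edgeR test). *BRPF1* did not pass after thinning (adjusted p = 0.127 by edgeR), without mocetinostat replicate 1 (adjusted p = 0.175 by edgeR) or with at least 10 counts in every sample. Under GAPDH scaling 4 of the 8 genes were lower at that threshold, and *BRD2*, *BRD7* and *BRPF1* changed sign, at 0.06, 0.03 and 0.17.

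The corepressor genes are described by complex. In NuRD, which joins a CHD helicase to HDAC1 and HDAC2, 7 of 9 genes fell at an adjusted p under 0.05 and 4 were called downregulated, at a median of -0.85 on the log2 scale. These are 77.8% and 44.4% of the group, against 39.5% and 8.88% of the genes with at least 10 CPM, and under GAPDH scaling 5 were lower and 2 higher. *MBD3*, which links the subcomplexes, was the lowest, at 88.0, 81.4 and 104 CPM with DMSO and 25.6, 42.8 and 34.4 CPM with mocetinostat. This was -1.496 on the log2 scale (standard error 0.14, adjusted p = 3.32e-15 by the edgeR test). *MTA2*, which binds the deacetylases, fell from 145, 148 and 158 CPM to 64.4, 60.1 and 63.4 CPM, which is -1.25 in log2 units (standard error 0.11, adjusted p = 5.75e-17 by the edgeR test). The helicase genes both fell, without overlap between the conditions, and both lost the call with glmTreat. *CHD3* went from 277, 296 and 347 CPM to 148, 146 and 139 CPM, or -1.08 on the log2 scale (standard error 0.09, adjusted p = 1.23e-17 by the edgeR test). *CHD4* went from 26.3, 33.1 and 28.9 CPM to 13.3, 11.8 and 13.3 CPM, with a log2 fold change estimated at -1.17 (standard error 0.20, adjusted p = 3.17e-07 by the edgeR test). The low level of *CHD4* is uncertain, because 46.9% of its exon bases also belong to an annotated gene on the same strand that held 0 counts in every sample. *MTA1* (-0.85), *MTA3* (-0.44) and *GATAD2B* (-0.44) fell by less, and *GATAD2A* (-0.10) did not pass the test, but passed as lower without DMSO replicate 1 (-0.25) and without a filter (-0.35). *MBD2*, the methyl-CpG-binding alternative to *MBD3*, stood at 57.2, 49.4 and 52.8 CPM with DMSO and 60.7, 34.7 and 60.1 CPM with mocetinostat, and did not pass the test (log2 fold change 0.01). Under GAPDH scaling *MBD3* (-0.96), *MTA2* (-0.72), *CHD3* (-0.55) and *CHD4* (-0.63) stayed lower but lost the call. With that scaling *MTA3* and *GATAD2B* changed sign, at 0.10 and 0.09, and *GATAD2A* (0.42) and *MBD2* (0.55) passed as higher. *MTA3* also did not pass with DESeq2, after thinning, with at least 10 counts in every sample, or without DMSO replicate 1 or mocetinostat replicate 1 or 3.

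In the SIN3 group, 1 of 4 genes fell at an adjusted p under 0.05, the scaffold *SIN3A*, with 153, 157 and 151 CPM against 119, 135 and 130.5 CPM. This is 25% of the group, against 31.4% of all genes tested and 39.5% of those with at least 10 CPM. In log2 units *SIN3A* was at -0.27 (standard error 0.10, adjusted p = 0.01005 by the edgeR test), which did not pass after thinning, with at least 10 counts in every sample, or without mocetinostat replicate 1. Its paralog *SIN3B* (-0.18) and the subunits *SAP30* (-0.13) and *SAP18* (0.04) did not pass the test, although *SIN3B* passed as lower without DMSO replicate 1 (-0.25), without mocetinostat replicate 2 (-0.27) and without a filter (-0.44). Under GAPDH scaling the direction turned: *SIN3A* (0.26), *SIN3B* (0.35) and *SAP18* (0.58) passed as higher and none as lower. *SAP18*, the highest of the group, held 66.7, 44.98 and 49.8 CPM with DMSO and 59.5, 47.1 and 58.9 CPM with mocetinostat, and DMSO replicate 1 was above all other samples. Of the histone chaperones shared by SIN3 and NuRD, *RBBP4* fell from 216, 180.1 and 171 CPM to 138, 131 and 143 CPM, which is -0.46 in log2 units (standard error 0.09, adjusted p = 2.05e-05 by the edgeR test). *RBBP7* stayed within the spread of the samples, at 244, 266 and 259.5 CPM against 264, 244 and 254 CPM, but passed as lower without a filter (-0.26) and as higher under GAPDH scaling (0.52). Exons of *SYNC* on the opposite strand cover 22.8% of those of *RBBP4*, and under GAPDH scaling *RBBP4* was at 0.08.

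In the NCoR and CoREST group of 5 genes, 2 fell (40%) and 1 rose (20%) at an adjusted p under 0.05. Of all genes tested 31.4% were lower and 32.9% higher, and of those with at least 10 CPM 39.5% and 29.1%. The gene that rose, *RCOR2*, lies below that level, with means of 2.24 CPM with DMSO and 9.515 CPM with mocetinostat. *NCOR1*, the scaffold that activates HDAC3, fell from 312, 302 and 311 CPM to 168, 161 and 184 CPM. In log2 units the change was -0.85 (standard error 0.08, adjusted p = 3.02e-14 by the edgeR test), so that *NCOR1* and *HDAC3* moved in opposite directions. *REST*, the repressor of neuronal genes that recruits CoREST, had a log2 fold change of -0.52 (adjusted p = 2.59e-05 by the edgeR test) and was at 0.01 under GAPDH scaling. *RCOR2* (ENSG00000167771, chromosome 11 from 63911230 to 63917164), a CoREST paralog best known from stem cells and neural progenitors, had the highest log2 fold change of the members, 2.14 (standard error 0.39, adjusted p = 1.62e-06 by the edgeR test). Its raw counts were 16, 14 and 16 under DMSO against 48, 18 and 19 under mocetinostat, or 1.45, 2.92 and 2.36 CPM against 9.52, 11.2 and 7.87 CPM. No mocetinostat-treated library held fewer counts of *RCOR2* than any DMSO-treated library, although 2 of the 3 were the shallowest. *RCOR1* (0.00) and *RCOR3* (-0.13), the widely expressed paralogs, did not pass the test, and passed as higher under GAPDH scaling (0.54 and 0.41).

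**Figure D3:**
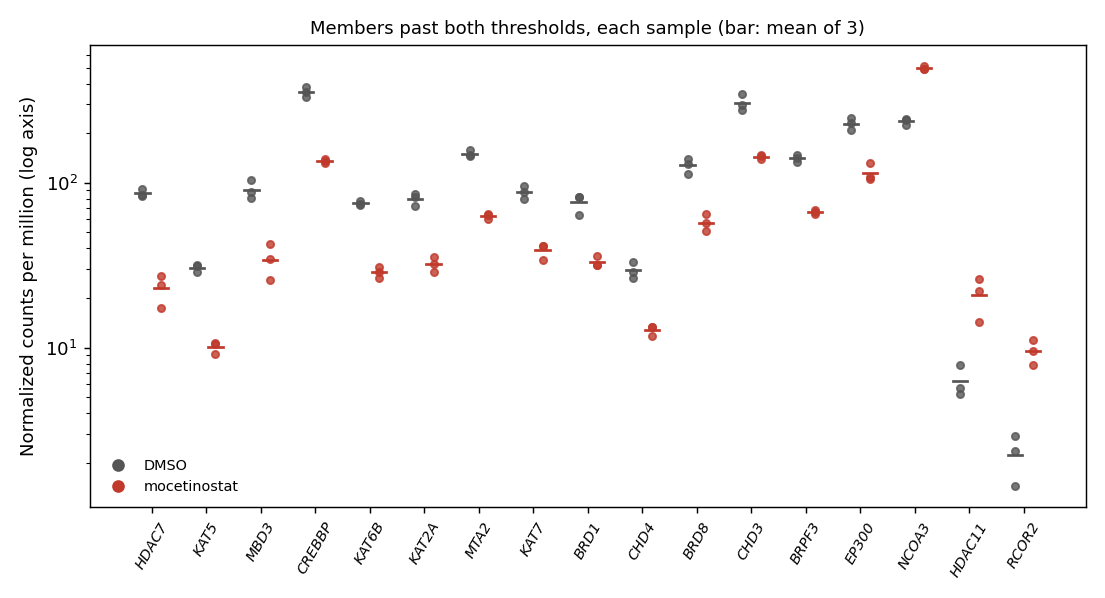
TMM-normalized CPM on a log axis for the 17 members past both thresholds, ordered by log2 fold change, with 1 point per sample (gray, DMSO; red, mocetinostat) and a bar at the mean of 3 samples. The 14 genes on the left are lower in every mocetinostat-treated sample, and *NCOA3*, *HDAC11* and *RCOR2* on the right are higher in every one.

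Ratios between paralogs within a library do not depend on how libraries are scaled, and 15 pairs were compared. In 12 of the 15 pairs the ratios of the conditions did not overlap, and in each of these the exact two-sided permutation p was 0.1, the smallest possible, and 0.125 after adjustment over the 15 pairs. Of all single genes tested, 33.7% did not overlap as higher and 32.8% as lower, so the count of pairs is not read as particular to these genes. The pairs that moved by over 1 were *MBD2* to *MBD3*, *NCOA1* to *NCOA3* and *KAT2A* to *KAT2B*, also with any sample left out. For *MBD2* to *MBD3* the log2 count ratio was -0.62, -0.72 and -0.98 with DMSO and 1.25, -0.30 and 0.80 with mocetinostat, a difference of 1.36, or 1.03 without mocetinostat replicate 1 and 1.80 without mocetinostat replicate 2. *NCOA1* to *NCOA3* went from -2.60 ± 0.33 to -3.91 ± 0.18 (SD, n = 3). *KAT2A* to *KAT2B* went from 2.46 ± 0.01 to 1.17 ± 0.36 (SD, n = 3), so that the excess of *KAT2A* counts over those of its paralog shrank. *KAT6A* to *KAT6B* went from 1.34 ± 0.11 to 2.17 ± 0.21, and *BRPF1* to *BRPF3* from -0.95 ± 0.04 to -0.21 ± 0.25 (SD, n = 3). *EP300* gained on *CREBBP*, from -0.64 ± 0.01 to -0.24 ± 0.18 (SD, n = 3). *HDAC5* gained on *HDAC4*, with a log2 count ratio of *HDAC4* to *HDAC5* of -1.03 ± 0.16 and -1.51 ± 0.24 (SD, n = 3). The ratios that overlapped were *HDAC1* to *HDAC2* (difference 0.10, p = 0.3 by the exact permutation test), *BRD2* to *BRD3* (0.08, p = 0.6) and *CHD3* to *CHD4* (0.12, p = 0.5).

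**Figure D4:**
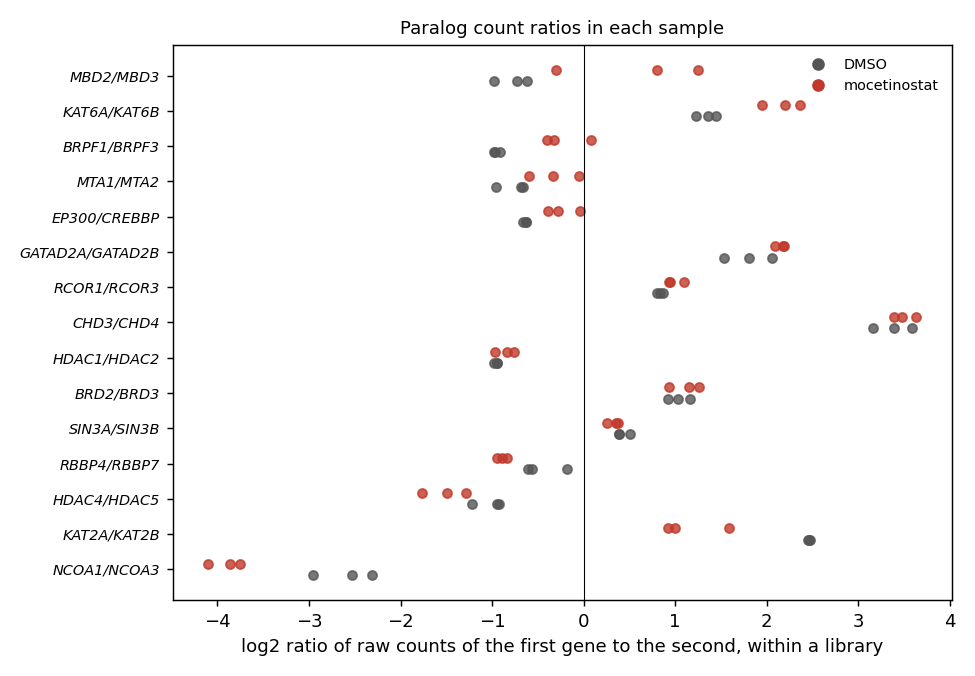
Log2 ratio of the raw counts of the first gene to those of the second in each library for 15 paralog pairs, ordered by the difference between conditions (gray, DMSO; red, mocetinostat; 3 points each). The pairs *NCOA1* to *NCOA3* and *KAT2A* to *KAT2B* shift to the left with mocetinostat, and *MBD2* to *MBD3* shifts to the right with the widest spread.

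A list of 80 further subunits and readers of the same complexes was followed in the same fit. It was taken by place in these complexes, but with earlier results of these data known, so it is not independent support. Of the 79 tested, 11 were called downregulated (13.9%) and 4 upregulated (5.06%), at a median of -0.43 on the log2 scale, while 47 were lower (59.5%) and 10 higher (12.7%) at an adjusted p under 0.05. Over all genes tested, 8.18% were called downregulated and 20.2% upregulated, and 31.4% were lower and 32.9% higher. Among genes of at least 10 CPM, 8.88% were called downregulated and 13.1% upregulated, and 39.5% were lower and 29.1% higher. Of the 30 partners of acetyltransferases, 21 fell (70%) and none rose, and 7 were called downregulated (23.3%). The lowest was *EPC1*, a scaffold of the TIP60 complex, which went from 27.9, 27.1 and 29.9 CPM to 6.15, 4.34 and 2.90 CPM, or -2.54 on the log2 scale (standard error 0.24, adjusted p = 7.62e-15 by the edgeR test). *JADE2* (-1.80), a partner of the HBO1 enzyme, *MCRS1* (-1.73), *EPC2* (-1.32), *MSL1* (-1.26), *TADA1* (-1.10) and *TADA2B* (-1.03) were the others. *TADA1* lost its call without mocetinostat replicate 3 (-0.80) and *TADA2B* without mocetinostat replicate 2 (-0.90), and all but *EPC1*, *JADE2* and *MCRS1* lost it under GAPDH scaling. The highest of this list was *JADE3* at 0.09. The readers outside the member list included 3 of the 4 upregulated partners. These were *CECR2* (2.41) and *SMARCA2* (1.31), chromatin remodelling subunits with bromodomains, and *MLLT3* (1.73), a YEATS reader of acetylated H3, while *ZMYND11* (-2.19), a reader of H3.3K36me3, and *ATAD2B* (-1.07, but -0.99 and not called without DMSO replicate 1) were called downregulated. *CHD5*, the neural CHD paralog of NuRD, went from 3.53, 3.33 and 3.98 CPM to 25.4, 35.3 and 16.99 CPM, with a log2 fold change estimated at 2.80 (standard error 0.26, adjusted p = 3.6e-15 by the edgeR test), whereas *CHD3* and *CHD4* fell. *CDK2AP1* (-1.25) of NuRD and *MIER3* (-1.27), a scaffold for HDAC1 and HDAC2, were called downregulated. Among the SIN3 partners no gene was called, with *ING2* the highest at 0.30 and *ARID4B* the lowest at -0.55. Among the NCoR and CoREST partners no gene was called, and the highest value, 0.56 for *GPS2*, did not pass the test.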

How the data were processed

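RNA-Seq was analyzed in 6 samples of TC28a2 cells. The authors deposited 1 table of raw counts of reads per gene, made, according to the study's methods, by trimming adapters, removing ribosomal RNA reads, aligning single reads to GRCh38 with STAR 2.6.1d, and assigning them to genes with featureCounts 1.6.4. The strand setting and the treatment of reads shared by overlapping genes are not given in the sources used here.

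From these counts, edgeR 4.0.16 (R 4.3.3) computed TMM factors, kept genes by filterByExpr (minimum count 10), and applied its quasi-likelihood test with treatment as the sole term. P-values were adjusted over all 13966 genes tested by the Benjamini-Hochberg method. Exon bases, positions and overlaps are from GENCODE release 44 (99.5% of identifiers matched), and promoter windows from RefSeq (GRCh38.p14, first entry per gene). CPM were computed with the TMM factors. Values in every sample are given for called members, HDAC1, HDAC2, HDAC3, HDAC8 and HDAC11, and the highest and lowest member of each role group; for partners, the called genes and the highest and lowest of each list are named, except 1 gene that is not reported here. The members and lists were chosen with earlier results of these data known. Alternatives were DESeq2 1.42.0, RLE factors, library size only, GAPDH scaling, no filter, at least 10 counts in every sample, glmTreat, a replicate block, binomial thinning to 1619344 counts, and leaving out each sample. Replicates differed by more than sampling noise (chi-square per degree of freedom, 1.93 to 7.95). Same-numbered samples did not deviate together.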

Additional observations from a re-analysis of the deposited data

How the results depend on the processing

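Depth limits the weakly expressed members, among them HDAC10, SIRT3, SIRT4, SIRT5 and RCOR2. HDAC10 and SIRT3 could not be tested with at least 10 counts in every sample. HDAC11 and RCOR2 kept their calls in all 15 alternatives. SIRT4 could be tested with DESeq2 (log2 fold change 1.01, adjusted p = 0.377) and without a filter (0.87, adjusted p = 0.346 by edgeR). No sequencing batch is given.

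Scaling to GAPDH gave 5 members called upregulated, 2 downregulated, 22 higher and 17 lower by adjusted p, and 4 partners called downregulated. Of the members called, 5 kept the call, 12 lost it, and HDAC5 and HDAC9 were added. glmTreat called 7 members and 7 partners downregulated, and at least 10 counts in every sample left 7 partners downregulated. Without a filter, which moved all log2 fold changes by -0.25, 4 members were higher and 22 partners were called downregulated, and DESeq2 gave 5 members higher. Of all calls, 71.2% were upregulated, against 94.0% with GAPDH scaling, 60.2% without a filter and 81.7% with glmTreat. The cause of these shifts was not tested, apart from the scaling itself. Without the members that share over 20% of their exon bases with another gene, 12 were called downregulated and 3 upregulated; this alternative was chosen after seeing the data. The replicate block gave 3 members called upregulated and 13 downregulated, with EP300 lost, and changed no other call of a member. Correlations of the deviations of same-numbered samples were 0.0382, 0.0172 and -0.0403, so no shared deviation was seen. With 3 samples per condition, this cannot tell whether same-numbered samples came from the same experiment. With each sample left out, 13 to 15 members were called downregulated and 3 upregulated, and EP300 was the sole call lost.

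Thinning gave a RCOR1 to RCOR3 difference of 0.0489. The differences in HDAC share moved for HDAC2 (-2.22 percentage points thinned, -0.81 without division by length, -0.32 with canonical transcripts), HDAC4 (0.10, 0.71 and 0.33), HDAC8 (-0.47, -1.56 and -3.46), HDAC7 (-9.34 without division and -8.65 with canonical transcripts) and HDAC9 (0.60 without division).

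The log2 fold change changed sign as follows, mostly in genes near 0. Without a filter, HDAC1 (-0.0104), HDAC2 (-0.12), HDAC6 (-0.16), SIRT6 (-0.24), SIRT7 (-0.11), KAT2B (-0.24), RCOR1 (-0.25), SAP18 (-0.21), MBD2 (-0.24), MIDEAS (-0.00347), JADE3 (-0.16) changed sign. Under GAPDH scaling, HDAC10 (0.14), SIRT2 (0.47), SIRT5 (0.48), KAT8 (0.0941), NCOA1 (0.27), BRD2 (0.0622), BRD7 (0.0335), BRPF1 (0.17), RCOR3 (0.41), REST (0.0117), SIN3A (0.26), SIN3B (0.35), SAP30 (0.40), MTA3 (0.0959), GATAD2A (0.42), GATAD2B (0.0922), RBBP4 (0.0758), RBBP7 (0.52) changed sign. With at least 10 counts in every sample, SIRT2 (0.0126), SIRT5 (0.0306), RBBP7 (0.0715) changed sign. After thinning, SIRT2 (0.14), SIRT5 (0.10), SIRT6 (-0.0629), KAT2B (-0.12), RCOR3 (0.11), RBBP7 (0.017) changed sign. With DESeq2, SIRT6 (-0.034), KAT2B (-0.0326), RCOR1 (-0.0368), MBD2 (-0.0425) changed sign. With the replicate block, KAT2B (-0.00218), RCOR1 (-0.00209), MBD2 (-0.022) changed sign. With RLE factors, RBBP7 (0.0125) changed sign. With library size only, RBBP7 (0.00952) changed sign. When single samples were left out, these values crossed 0: HDAC6 (-0.0266 to 0.23), HDAC10 (-0.79 to 0.24), SIRT2 (-0.37 to 0.13), SIRT5 (-0.53 to 0.24), SIRT6 (-0.10 to 0.0715), SIRT7 (-0.00131 to 0.19), KAT2B (-0.11 to 0.0683), RCOR1 (-0.11 to 0.0553), SAP18 (-0.10 to 0.22), MBD2 (-0.14 to 0.16).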

Other observations

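The quantities in this paragraph were chosen after the values had been seen. The summed raw counts of the 12 acetyltransferases, divided by those of HDAC1 to HDAC11 in the same library, were 2.08, 2.09 and 2.03 under DMSO against 1.42, 1.46 and 1.37 under mocetinostat. This ratio does not depend on the scaling of libraries, and its exact two-sided permutation p was 0.1, the smallest that 3 samples against 3 can give. Members and partners were also sorted by the acetyltransferase complex they belong to, with TRRAP and MEAF6 counted in more than 1. Of 13 genes of the TIP60 complex, 11 fell at an adjusted p under 0.05 by edgeR and 4 were called downregulated: KAT5, BRD8, EPC1 and EPC2. Of 12 genes of the MOZ, MORF and HBO1 complexes, 10 fell and 5 were called: KAT6B, KAT7, BRD1, BRPF3 and JADE2. Of 9 genes of the MSL and NSL complexes, 7 fell and 2 were called, MSL1 and MCRS1. Of 11 genes of SAGA and ATAC, 5 fell and 3 were called: KAT2A, TADA1 and TADA2B. None of these genes rose at that threshold. Of all genes tested 32.9% were higher, 31.4% lower and 8.18% called downregulated, and of those with at least 10 CPM 39.5% were lower and 8.88% called downregulated, close to the 45.5% lower of SAGA and ATAC. Under GAPDH scaling all log2 fold changes move up by 0.54, and the smaller falls of the members change sign.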
